A study of Mus musculus with 6 samples.

Results

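Fgf7/Bmper nuclei are stromal nuclei of the mouse fracture callus that carry transcripts of Fgf7, Bmper, Tspan11, Scn7a, Svep1 or Sfrp1. They were chosen by their measured counts in the 4 post-fracture libraries. Transcripts of several neighbouring populations were limited in the same way, and not all had to be absent. Barcodes were kept when 200 to 5000 genes were detected and when UMIs (unique molecular identifiers, 1 per captured transcript) of mitochondrial genes were under 2% and those of ribosomal protein genes under 1.5% of the total. A kept nucleus counted as Fgf7/Bmper when it held at least 3 UMIs of the 6 marker genes together. The nucleus needed at least as many of these as of Brinp3, Fhod3, Tnn, Tnc and Enpp1, used here for injury-induced fibrogenic cells. It also had to hold under 4 UMIs of the stem and neighbouring stromal genes Pi16, Dpp4, Opcml and Rorb, under 4 of the tendon genes Tnmd, Mkx, Thbs4 and Fmod, and none of Ptprc or Pecam1, which mark blood and endothelial cells. The rule found 506 of 6247 kept post-fracture nuclei, in a series of 8073 kept nuclei from 13551 barcodes.

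Several of the marker genes encode secreted proteins that act on neighbouring cells. Fgf7 is a fibroblast growth factor made by mesenchyme and sensed mainly by epithelial cells through a splice form of Fgfr2, Bmper is a secreted protein that binds bone morphogenetic proteins and can dampen or aid their signal, and Sfrp1 is a soluble Wnt antagonist. Fibroblasts of the periosteum lie on the bone surface, supply matrix and growth factors, and take part in the early soft tissue that bridges a fracture before cartilage and bone form.

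Single nuclei were sequenced from the tibial periosteum of C57BL6 mice, males and females mixed, aged 12 weeks. Uninjured periosteum was taken in 2 libraries, each a pool of 4 mice, and periosteum with hematoma was taken 3 days (2 libraries), 5 days (1 library) and 7 days (1 library) after fracture, each a pool of 4 to 9 mice. Pooling leaves no value for a single animal, so p-values measure variation between pooled libraries. In the test over all post-fracture libraries this variation includes differences between days. The total UMI count per library was 1499281 and 6570301 in the uninjured libraries, 2516184 and 29796296 on day 3, 10411092 on day 5 and 4500767 on day 7.

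The Fgf7/Bmper nuclei numbered 48 and 85 in the 2 day 3 libraries, 228 on day 5 and 145 on day 7. Their median depth was 3690 and 5173 UMIs per nucleus on day 3, 3447 on day 5 and 1915 on day 7, and their summed UMIs came to 235069, 517157, 997222 and 379156 in the same order. The same rule applied to the uninjured libraries found 24 nuclei of 644 in replicate 1 and 128 of 1182 in replicate 2, with 83854 and 835484 UMIs in all. Uninjured replicate 1 was thus the thinnest library in the comparisons with uninjured nuclei.

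The libraries were processed upstream in different ways. Cell Ranger 6.0.0 made the counts of uninjured replicate 1, day 5 and day 7, and 7.1.0 those of uninjured replicate 2 and both day 3 libraries. They listed 31055 to 32287 genes, and values were limited to the genes listed for all 6. Barcodes shared between 2 libraries numbered at most 7, between day 3 replicate 2 and day 5. Scrublet marked 10 of the 506 nuclei (1.98%) and 138 of all 8073 kept nuclei (1.71%) as doublets, and these were kept.

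Just inside and just outside the rule the nuclei formed a gradient rather than 2 separate sets. Of the 1133 post-fracture nuclei with at least 3 marker UMIs, 251 held more fibrogenic than marker UMIs, and 33 of those retained held equal numbers of both. No fibrogenic UMI was found in 171 of the 506 nuclei, while 185 held at least 3. Nuclei at the threshold of 3 marker UMIs numbered 83, those just under it with 2 numbered 151, and 212 nuclei held at least 10.

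Expression differed along this gradient. Levels below are UMIs of a gene in the summed nuclei, scaled to counts per 1000000 UMIs (CPM). Col3a1, a fibrillar collagen, stood at 222 and 1476 CPM on day 3, 597 on day 5 and 636 on day 7 in nuclei with 3 marker UMIs, against 1855, 2807, 2003 and 1647 CPM in nuclei with at least 10. Ttn, the giant sarcomere protein of muscle fibres, stood at 12603, 1071, 1282 and 288 CPM in nuclei with 3 marker UMIs against 296, 1120, 103 and 305 CPM in those with at least 10, so it was higher at the threshold in day 3 replicate 1 and on day 5 but not in the other 2 libraries. Nuclei with 2 marker UMIs, outside the rule, had 10687, 10677, 3901 and 3114 CPM.

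As a share of kept nuclei, Fgf7/Bmper nuclei made up 6.37% (95% Clopper-Pearson interval 4.74 to 8.36) and 4.94% (3.97 to 6.07) on day 3, 9.41% (8.28 to 10.6) on day 5 and 10.7% (9.13 to 12.5) on day 7. In the uninjured libraries the same rule took 3.73% (2.40 to 5.49) and 10.8% (9.11 to 12.7). The uninjured libraries thus spanned the whole post-fracture range. With nuclei holding at least 5 myofibre UMIs left out of both counts, a setting chosen after seeing the data, the shares were 5.12% and 12.5% in the uninjured libraries, 10.2% (7.19 to 13.9) and 5.33% (4.17 to 6.71) on day 3, 9.97% (8.72 to 11.3) on day 5 and 12.9% (11.0 to 15.1) on day 7. Day 3 replicate 1 was then close to day 5. With nuclei kept at under 5% mitochondrial UMIs and no ribosomal limit, day 3 replicate 2 came to 2.78% and day 7 to 4.27%, below day 3 replicate 1, so the order of the days depended on these limits.

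The 6 marker genes chose the nuclei, so their levels are a description and were not tested. Bmper (1064 and 1035 CPM on day 3, 1182 on day 5 and 752 on day 7) lies on chromosome 9 from 23223076 to 23485200 on the forward strand (GENCODE mouse release 21, GRCm38, identifier ENSMUSG00000031963). Fgf7 (ENSMUSG00000027208, chromosome 2, 126034658 to 126091185, forward strand) stood at 213 and 199 CPM on day 3, 502 on day 5 and 379.8 on day 7. Fgf7 was thus lowest in both day 3 libraries, whereas Bmper was lowest at day 7.

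Svep1 encodes a large extracellular adhesion protein and stood at 362, 739, 962 and 873 CPM across the day 3, day 5 and day 7 libraries. Scn7a, a sodium-sensing channel, stood at 242, 574, 638 and 522 CPM in the same order. Both were lowest in day 3 replicate 1 and highest at day 5. Tspan11, a membrane tetraspanin, stood at 72.3, 69.6, 126 and 132 CPM, and Sfrp1 at 132, 309, 276 and 166 CPM. Tspan11 was lower in both day 3 libraries than later, while Sfrp1 peaked in day 3 replicate 2.

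In uninjured nuclei passing the same rule the balance of the markers was different. Fgf7 stood at 679.8 and 433 CPM there and Tspan11 at 107 and 385 CPM, while Sfrp1 was not found in replicate 1 and stood at 23.9 CPM in replicate 2. Bmper stood at 346 and 717 CPM. Sfrp1 was above both uninjured libraries in all 4 post-fracture libraries, as was Bmper, although at day 7 only by 752 against 717 CPM.

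**Figure D1:**
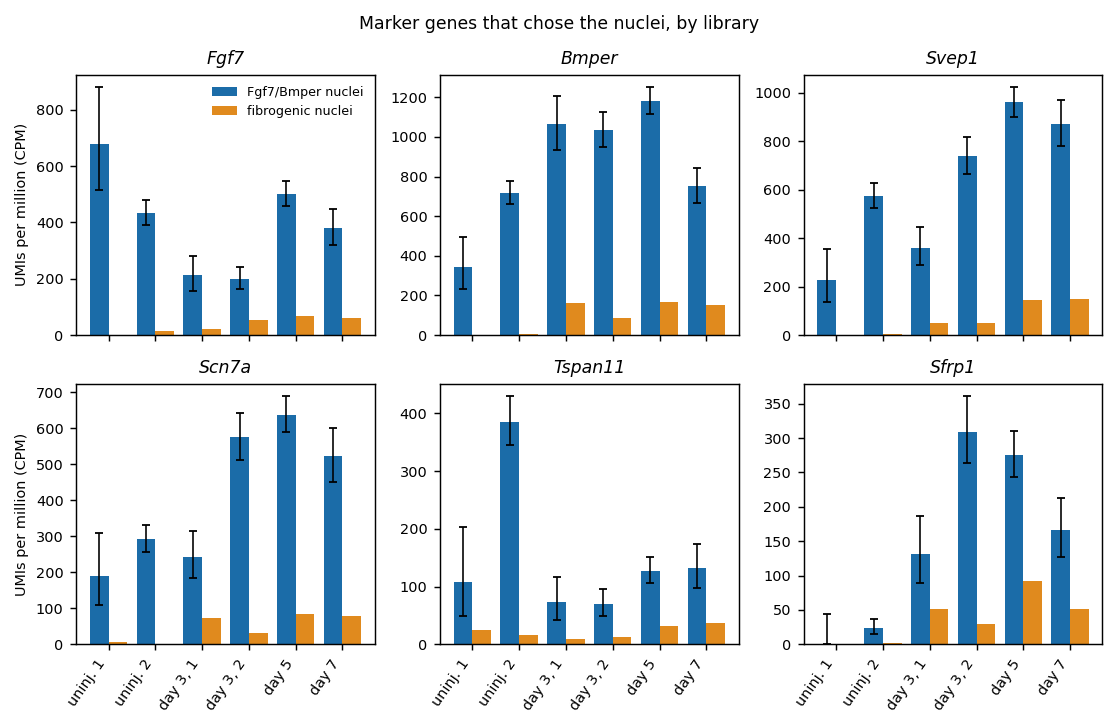
Levels of the 6 marker genes (CPM) in Fgf7/Bmper nuclei (blue, with 95% Poisson intervals of the counts) and in fibrogenic nuclei (orange), by library. Fgf7 stood at 213 and 199 CPM on day 3 and at 680 CPM in uninjured replicate 1, and Sfrp1 was not found in that uninjured library.

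Few nuclei held all the markers. Of the 506 nuclei, 55 (10.9%) held UMIs of 1 marker gene, 128 (25.3%) of 2, 134 (26.5%) of 3, 104 (20.6%) of 4, 70 (13.8%) of 5 and 15 (2.96%) of all 6. The marker with the most UMIs was Bmper in 191 nuclei, Svep1 in 112, Scn7a in 81, Fgf7 in 35, Sfrp1 in 22 and Tspan11 in 8, with no single leading gene in 57. The name by Fgf7 and Bmper therefore describes the sum of the genes more than each nucleus.

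Thinning every nucleus to 500 UMIs puts nuclei of different depth on 1 scale, and immune nuclei (at least 3 Ptprc UMIs) give the share that free RNA produces in cells that should lack the genes. Bmper was then seen in 37.2% of Fgf7/Bmper nuclei against 2.04% of immune nuclei, Svep1 in 30.7% against 2.04%, and Scn7a in 26.5% against 1.84%. Fgf7 was seen in 12.1% against 0.715%, Sfrp1 in 12.1% against 1.12% and Tspan11 in 7.72% against 0.102%. All 6 pooled shares lay above the immune share, which the rule itself ensures for the set. Of the 979 immune nuclei 695 came from day 3 replicate 2 and 11 from day 7, where 2 of the 11 held a Fgf7 UMI (18.2%, against 14.6% of Fgf7/Bmper nuclei), so the immune share says little of day 7. At 1000 UMIs the shares were 51.7% for Bmper, 47.0% for Svep1, 40.2% for Scn7a, 22.2% for Fgf7, 16.7% for Sfrp1 and 10.0% for Tspan11, and without thinning 74.3%, 69.0%, 62.3%, 37.5%, 38.1% and 28.9%. Detection of each marker thus rose with depth. Without thinning the immune shares ranged from 2.45% for Tspan11 to 11.7% for Bmper, at median depths of 2388 and 4910 UMIs on day 3, 2717 on day 5 and 3499 on day 7.

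The fibroblast identity was checked with 10 fibroblast genes that the rule did not use. Their summed level was 4016 and 8493 CPM on day 3, 7439 on day 5 and 4882 on day 7, and at least 3 UMIs of the list were found in 87.5%, 100%, 97.8% and 88.3% of the nuclei. Nuclei passing the rule in the uninjured libraries had 2528 and 6007 CPM, with 95.8% and 92.2% at that level. Of the receptors, Pdgfra stood at 149 and 315 CPM on day 3, 139 on day 5 and 119 on day 7, and Pdgfrb at 106, 122, 75.2 and 135 CPM in the same order. All 10 genes were detected in each post-fracture library except Twist1, a transcription factor, which had no UMI at day 7. The nuclei thus held UMIs of the fibroblast list at every time point. No share from immune nuclei is given for these genes, so these values have no background of free RNA beside them.

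Transcripts of other cell types were also present, and differently by library. The 8 myofibre genes summed to 6117 and 2367 CPM in Fgf7/Bmper nuclei on day 3, 894 on day 5 and 483 on day 7, with Ttn leading at 4479.5, 1083, 400.1 and 301 CPM. At least 5 myofibre UMIs were found in 27.1%, 20.0%, 7.89% and 2.07% of the nuclei. The 6 chondrocyte genes ran the other way, at 34.0 and 135 CPM on day 3, 1296 on day 5 and 2361 on day 7, and osteoblast genes at 906, 1035, 1426 and 2002 CPM, of which Runx2 alone made up 893, 982, 1172 and 1791 CPM. Among the post-fracture libraries, muscle transcripts were thus highest at day 3, and cartilage transcripts at days 5 and 7.

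The rule itself required no UMI of Ptprc and Pecam1, of the immune and endothelial lists, and limited 4 of the 5 tendon genes, so low levels of these lists are in part set by it. Immune genes summed to 63.8 and 253 CPM on day 3, 33.1 on day 5 and 23.7 on day 7, endothelial genes to 21.3, 44.5, 58.2 and 34.3 CPM, osteoclast genes to 21.3, 40.6, 42.1 and 34.3 CPM and tendon genes to 29.8, 101, 119 and 169 CPM. Genes of cell division summed to 391 and 375 CPM on day 3, 177 on day 5 and 142 on day 7, and at least 3 of their UMIs were found in 14.6%, 20.0%, 4.83% and 2.76% of nuclei. Division genes were therefore highest at day 3 in both libraries.

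In the uninjured libraries the nuclei that passed the rule were more mixed. Nerve-sheath fibroblast genes summed to 1299.9 and 1698 CPM there against 17.0 to 174 CPM after fracture, Schwann cell genes to 2385 and 316 CPM against 29.8 to 102 CPM, smooth muscle and pericyte genes to 2015 and 736 CPM against 111 to 252 CPM, and adipocyte genes to 358 and 2013 CPM against 39.6 to 204 CPM. At least 5 UMIs of 1 of these lists or of the myofibre list were found in 12 of 24 and 80 of 128 uninjured nuclei, and in 27.1%, 29.4%, 18.0% and 3.45% after fracture. Transcripts of these 4 types were thus more abundant in the uninjured nuclei, whereas the summed myofibre level in CPM was higher on day 3. The share of nuclei with at least 5 myofibre UMIs overlapped between uninjured and day 3 libraries. It was 0% in uninjured replicate 1 and 31.25% in uninjured replicate 2 (40 of 128), against 27.1% and 20.0% on day 3.

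**Figure D2:**
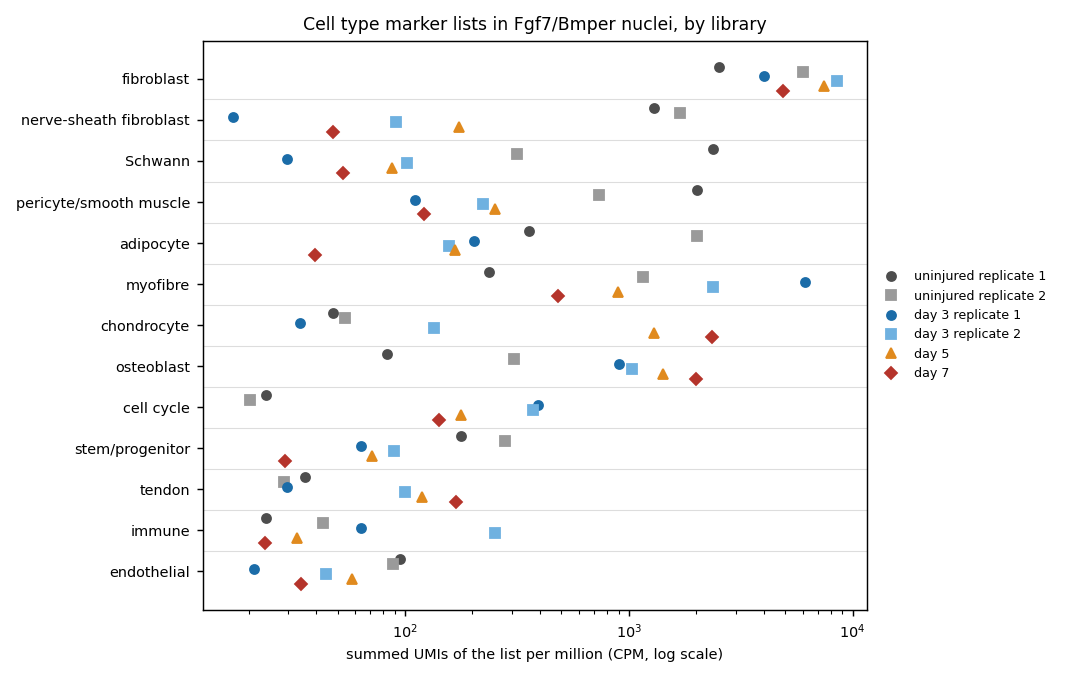
Summed level of each cell type marker list (CPM, log scale) in Fgf7/Bmper nuclei, with a point for each of the 6 libraries. The fibroblast list lay between 2528 and 8493 CPM, while the Schwann list fell from 2385 and 316 CPM in the uninjured libraries to at most 102 CPM after fracture.

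The first comparison asked which genes differ between Fgf7/Bmper nuclei after fracture and the uninjured nuclei that pass the same rule. UMIs were summed over these nuclei in each library, and the 4 post-fracture libraries were set against the 2 uninjured ones. More genes were lower than higher after fracture. The higher genes included Kif26b, Runx1, Postn and P4ha3, and the lower genes included C7 and markers of other cell types found in the uninjured nuclei.

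The quasi-likelihood test of edgeR, with p adjusted by the Benjamini-Hochberg method, called 4.41% of 7681 tested genes outside the rule. It found 85 genes higher after fracture (1.11%) and 254 lower (3.31%), at an adjusted p under 0.05, and 1395 had an unadjusted p under 0.05. In 85 and 253 of them (1.11% and 3.29%) the libraries of the 2 groups did not overlap, which also holds for each gene reported as higher or lower below. The counts depended on single libraries. Without uninjured replicate 1 they were 25 higher and 162 lower, without uninjured replicate 2 they were 14 and 85, without day 5 they were 36 and 124, and without day 3 replicate 2 the count of lower genes was 161.

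Kif26b, a kinesin-family protein that acts in noncanonical Wnt5a signalling through Ror receptors, had the most certain rise. It stood at 35.8 and 13.2 CPM in the uninjured libraries, 562 and 586 on day 3, 474 on day 5 and 728 on day 7. The 4 post-fracture libraries lay close together and far above both uninjured ones. Its pooled level was 36.5 (95% interval 21.7 to 67.0) times higher, with a log2 fold change of 5.10 ± 0.54 (SE) at an adjusted p of 0.00263. The intervals of this and the other pooled ratios cover counting error only, not variation between libraries. Across 15 alternative settings the adjusted p ranged from 4.53e-14 to 0.0373, and the gene passed the threshold in all 15. Kif26b (ENSMUSG00000026494) lies on chromosome 1 from 178529125 to 178939200.

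Among genes of matrix assembly, Postn and P4ha3 rose. Postn encodes periostin, a matricellular protein that binds collagen and is named for the periosteum, and stood at 0 and 65.8 CPM in the uninjured libraries, 698 and 905 on day 3, 1979 on day 5 and 1097 on day 7. Every post-fracture library was above both uninjured libraries, with the highest value at day 5. The log2 fold change was 4.71 ± 0.80 (SE) at an adjusted p of 0.0154, with a range over the alternatives from 5.43e-14 to 0.039. Postn is 1 of 15 genes of the matrix score that the study itself uses, of which 1 passed edgeR's test, so it is not independent evidence of direction.

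P4ha3, a subunit of the enzyme that hydroxylates collagen prolines, had 3 UMIs in all in uninjured nuclei, which is 0 and 3.59 CPM. After fracture it stood at 72.3, 110.2, 105 and 97.6 CPM, a pooled ratio of 31.1 (95% interval 10.5 to 152). These 4 libraries were within a narrow span and above both uninjured libraries, with an adjusted p of 0.00432 that reached 0.0502 in 1 of the 15 alternatives.

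Ltbp2, a fibrillin-binding protein of the latent TGF-β binder family, stood at 0 and 10.8 CPM in uninjured nuclei and at 136, 244, 71.2 and 97.6 CPM after fracture, with a log2 fold change of 3.90 ± 0.72 (SE) at an adjusted p of 0.0203. Adam12, a membrane metalloprotease, stood at 215 and 250.2 CPM in the uninjured libraries and at 1502, 1294, 1019.8 and 809.7 CPM after fracture, and Has2, the main hyaluronan synthase, at 11.9 and 41.9 and at 199.9, 261, 129 and 108 CPM. Adam12 and Has2 were highest at day 3 and lower at each later day, though always above both uninjured libraries. Their log2 fold changes were 2.36 and 2.38, at adjusted p 0.0148 and 0.034. Ltbp2 was called in 13 of 15 alternatives, Adam12 in 12 of 15 and Has2 in 8 of 15, with adjusted p up to 0.155, 0.117 and 0.145.

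Of the transcription factors, Runx1 had the most certain rise. Runx1 and Runx2 bind the same DNA motif, and Runx2 is required for osteoblast formation. Runx1 stood at 47.7 and 187 CPM in the uninjured libraries, 1306 and 2044 on day 3, 1761 on day 5 and 1479.6 on day 7, and Runx2 stood at 71.6 and 282, 893 and 982, 1172 and 1791 CPM in the same order. Runx1 peaked in day 3 replicate 2, whereas Runx2 was highest at day 7, and neither overlapped with the uninjured libraries. The log2 fold change of Runx1 was 3.69 ± 0.53 (SE) at an adjusted p of 0.00761, with a range from 2.34e-12 to 0.0222 over the alternatives, and that of Runx2 was 2.72 ± 0.59 (SE) at an adjusted p of 0.0333. Runx1 (ENSMUSG00000022952) lies on chromosome 16 from 92601466 to 92826149 on the reverse strand.

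Runx1 also belongs to the factors that the study calls its fibro-core and chose in these data, so the list is not independent evidence of direction. The list used here held 20 factors, not the whole of the study's list. They were all tested in Fgf7/Bmper nuclei, 5 were higher by edgeR, none was lower by either tool, and the median log2 fold change was 1.33 beside 0.07 over all tested genes. The other factors called were E2f3, which drives entry into DNA replication, Etv6, an ETS repressor, Bcl3, a partner of NF-κB, and Meis1, a homeodomain factor of limb patterning. E2f3 stood at 11.9 and 46.7 CPM in uninjured nuclei and 199.9, 238, 196 and 166 CPM after fracture, and Etv6 at 262 and 251 and at 808, 656, 722 and 604 CPM. Both were nearly level over the post-fracture libraries. Their adjusted p was 0.0158 and 0.0331, that of Bcl3 0.034 and that of Meis1 0.0333, with log2 fold changes of 2.47, 1.51, 3.08 and 1.64. These 4 factors were no longer called without nuclei holding UMIs of other types, with log2 fold changes of 2.29 with an adjusted p of 0.0557 for E2f3, 1.88 with an adjusted p of 0.0538 for Etv6, 3.81 with an adjusted p of 0.0782 for Bcl3 and 0.70 with an adjusted p of 0.573 for Meis1 (over all alternatives 5.69e-05 to 0.0557, 0.00601 to 0.21, 0.000671 to 0.192 and 0.0257 to 0.573). The log2 fold change was thus much smaller for Meis1 and not for the other 3, and Meis1 was called in 6 of 15 alternatives.

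Kif15 and Kif11, motor proteins of the mitotic spindle, were also higher. Each had 1 UMI in all uninjured nuclei. Kif15 stood at 93.6, 56.1, 45.1 and 21.1 CPM after fracture and Kif11 at 97.8, 59.9, 31.1 and 23.7 CPM, with pooled ratios of 44.9 (95% interval 7.89 to 1791) and 40.6 (95% interval 7.11 to 1620.0). Both were highest in day 3 replicate 1 and lowest at day 7, with adjusted p 0.0253 and 0.0326. Each was called in 11 of 15 alternatives and neither without nuclei holding UMIs of other types (adjusted p 0.325 and 0.306). Of 6 tested genes of cell division, edgeR called Kif11 higher and DESeq2 3 genes, none was lower, all 6 had an unadjusted p under 0.05, and the list's median log2 fold change was 3.59 (all tested genes 0.07).

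The remaining genes with the largest rises were unnamed transcripts. Gm28653 stood at 11.9 and 1.20 CPM in uninjured Fgf7/Bmper nuclei and 106, 61.9, 118 and 58.0 CPM after fracture, but at 813, 689, 224 and 611 CPM in fibrogenic nuclei of the same post-fracture libraries, so it was at least as high elsewhere. A630023A22Rik rose from 0 and 2.39 to 25.5, 83.1, 63.2 and 89.7 CPM, AC133498.1 from 11.9 and 0 to 93.6, 38.7, 50.1 and 47.5 CPM, and 5730419F03Rik from 0 and 1.20 to 162, 59.9, 88.2 and 21.1 CPM. Each had 1 or 2 UMIs in all uninjured nuclei, and their adjusted p ranged from 0.0156 to 0.0425. When nuclei holding UMIs of other types were left out, the log2 fold change of Gm28653 was 1.89 with an adjusted p of 0.733, AC133498.1 at 2.39 with an adjusted p of 0.651 and A630023A22Rik at 3.18 with an adjusted p of 0.076, none of them called, and 5730419F03Rik was not tested there (over all alternatives 1.15e-07 to 0.733, 8.86e-06 to 0.651, 1.51e-06 to 0.218 and 1.16e-08 to 0.333).

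The strongest loss was of C7, which encodes a component of the terminal complement complex. It stood at 310.1 and 1066 CPM in the uninjured libraries, had no UMI in either day 3 library or at day 7, and stood at 4.01 CPM at day 5. Only 4 UMIs were left among the 506 nuclei, a pooled level 531 (95% interval 207 to 1952) times lower, with a log2 fold change of -8.45 ± 0.77 (SE) at an adjusted p of 0.00176. Across the 15 alternatives the adjusted p of C7 ranged from 3.29e-46 to 0.014 and always passed. C7 (ENSMUSG00000079105) lies on chromosome 15 from 4988762 to 5063740 on the reverse strand. The fibrogenic nuclei of the 4 libraries had no C7 UMI at all.

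Inmt, an enzyme that methylates indoleamines, fell from 83.5 and 47.9 CPM to no UMI in any post-fracture library, which is at least 36.3-fold lower when 3 counts are taken as the floor over the group (adjusted p 0.0158). Igfbp6, which binds insulin-like growth factor 2, fell from 59.6 and 193 CPM to 0, 5.80, 13.0 and 5.28 CPM, and Timp3, a matrix-bound inhibitor of metalloproteases, from 298 and 314 to 4.25, 30.9, 68.2 and 47.5 CPM. Both were lowest in day 3 replicate 1. Their log2 fold changes were -4.14 and -2.86, at adjusted p 0.01 and 0.0246. Over the alternatives Igfbp6 was called in 14 of 15 and Timp3 in 12 of 15, with adjusted p up to 0.331 and 0.188.

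Another 4 genes that fell were Dcn, Col15a1, Cd34 and Ly6a. Dcn, the small proteoglycan decorin, stood at 596 and 1245 CPM in uninjured nuclei and 183, 454, 301 and 277 CPM after fracture, a log2 fold change of -1.58 ± 0.38 (SE) at an adjusted p of 0.0481. Col15a1, a collagen of the basement membrane zone, stood at 83.5 and 192 CPM before and 12.8, 38.7, 30.1 and 21.1 CPM after, with -2.42 ± 0.43 (SE) at an adjusted p of 0.0164. Of the surface markers of progenitors, Cd34 stood at 83.5 and 138 and then 21.3, 48.3, 24.1 and 10.6 CPM, and Ly6a at 23.9 and 94.6 and then 17.0, 13.5, 15.0 and 7.91 CPM. Each of these 4 genes was lower in all 4 post-fracture libraries than in either uninjured library, with adjusted p 0.0419 for Cd34 and 0.0428 for Ly6a. Dcn was called in 9 of 15 alternatives, Col15a1 in 13 of 15, Cd34 in 6 of 15 and Ly6a in 6 of the 11 in which it was tested, with adjusted p up to 0.351, 0.329, 0.38 and 0.135, and DESeq2 called neither Cd34 nor Ly6a.

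Gpm6a and Ryr2 were also among the largest losses. Gpm6a, a membrane glycoprotein best known from neurons, stood at 167 and 132 CPM and had 1 UMI after fracture, a pooled ratio of 287 (95% interval 50.6 to 11430.0). Ryr2, a calcium release channel, stood at 1169 and 71.8 CPM and then 0, 1.93, 3.01 and 0 CPM. The level of Ryr2 differed several-fold between the 2 uninjured libraries.

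Lmod1, an actin nucleator of smooth muscle, fell from 131 and 75.4 CPM to no UMI (at least 57.1-fold), Pck1, a metabolic enzyme of adipocytes and liver, from 23.9 and 166 CPM to no UMI (at least 109-fold), and Col4a3, a basement membrane collagen, from 23.9 and 87.4 CPM to no UMI (at least 57.9-fold). The adjusted p of these 5 genes ranged from 0.00176 for Gpm6a to 0.0169 for Col4a3.

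By list, 2 of 5 tested nerve-sheath genes (Luzp2 and Ntng1), 3 of 7 smooth muscle and pericyte genes (Tagln, Acta2 and Myh11) and 3 of 5 adipocyte genes (Lpl, Plin1 and Cidec) were lower in Fgf7/Bmper nuclei, and none was higher. The median log2 fold changes were -3.60, -3.70 and -3.12. Of the Schwann genes Prx, Cdh19 and Mbp were lower. The gene with the most UMIs of its list in both uninjured libraries was Luzp2 (608 and 691 CPM) for nerve sheath and Myh11 (906 and 250.2 CPM) for smooth muscle, while Mbp (882 CPM, replicate 1) and Cdh19 (154 CPM, replicate 2) led the Schwann list and Plin4 (107 CPM, replicate 1) and Pparg (810.3 CPM, replicate 2) the adipocyte list. After fracture Luzp2 stood at 0, 9.67, 13.0 and 0 CPM and Myh11 at 0, 3.87, 9.03 and 2.64 CPM.

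Because these types moved with the result, the test was repeated without nuclei that held at least 5 UMIs of 1 of the 4 lists or of the myofibre list, a setting chosen after seeing the data. It left 12 and 48 uninjured nuclei and 35, 60, 187 and 140 after fracture. Of 6082 tested genes 48 were then higher and 91 lower, and 28 of the 85 and 60 of the 254 earlier calls were among them. Of the 46 genes picked for this comparison by the rule for naming genes 13 were called, 14 were not and 19 were no longer tested.

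Kif26b, Postn, Runx1 and C7 were among the genes still called after this step. Kif26b had a log2 fold change of 6.45 with an adjusted p of 0.0017, Postn 4.75 with an adjusted p of 0.00993, Runx1 3.22 with an adjusted p of 0.0164, and C7 -9.00 with an adjusted p of 0.000137. P4ha3, Ltbp2 and Bmpr1b also remained higher, and Inmt, Igfbp6, Timp3, Dcn, Col15a1 and Cd34 remained lower. Runx2 was not called, at 1.64 with an adjusted p of 0.192 (range over the alternatives 3.20e-06 to 0.192), nor were Adam12 at 2.20 with an adjusted p of 0.066 (3.90e-06 to 0.117), Has2 at 2.15 with an adjusted p of 0.145 (0.000162 to 0.145), or Kif11 at 3.21 with an adjusted p of 0.306 (1.15e-05 to 0.326). Gpm6a, Lmod1, Ryr2, Pck1 and Col4a3 had too few UMIs to be tested in that setting.

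**Figure D3:**
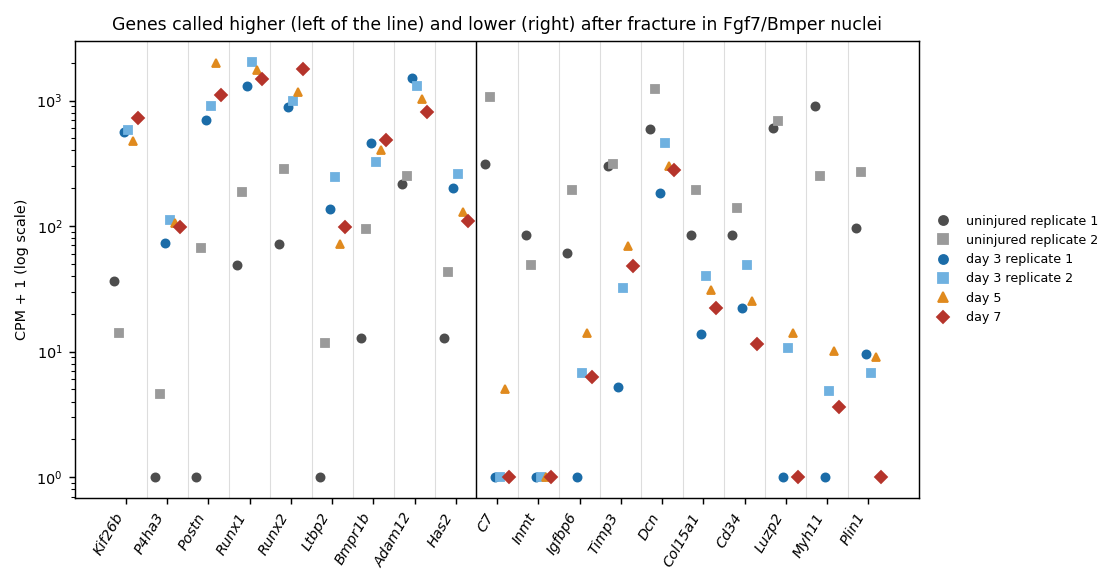
Level of genes called higher (left of the line) or lower (right) after fracture in Fgf7/Bmper nuclei, as CPM plus 1 on a log scale, with a point for each of the 6 libraries. Runx1 lay at 47.7 and 187 CPM in the uninjured libraries and between 1306 and 2044 CPM after fracture, and C7 fell from 310.1 and 1066 CPM to at most 4.01 CPM.

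Signalling lists were read gene by gene against the background of 1.11% higher and 3.31% lower. Of 18 FGF ligands, receptors and targets 10 were tested, and Fgf9, a ligand, was lower, from 47.7 and 43.1 CPM to 0, 7.74, 2.01 and 0 CPM (log2 fold change -3.87 ± 0.84 (SE) at an adjusted p of 0.0339). Fgf9 was called in 10 of the 12 alternatives in which it was tested, and was not tested without nuclei holding UMIs of other types. DESeq2 called Fgf9 and also Fgf1 lower. No FGF gene was higher and the median was -0.20. The receptors Fgfr1 (310.1 and 351 CPM before, 277, 460.2, 289.8 and 235 CPM after) and Fgfr2 (298 and 338 and 132, 213, 247 and 351 CPM) did not pass the test and overlapped between groups.

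Of 31 BMP genes 18 were tested. Bmpr1b, a type I receptor, rose from 11.9 and 93.4 to 459, 325, 399 and 488 CPM (log2 fold change 2.72 ± 0.56 (SE) at an adjusted p of 0.0295), and the antagonist Nbl1 fell from 143 and 91.0 to 12.8, 23.2, 33.1 and 7.91 CPM (-2.37 ± 0.51 (SE) at an adjusted p of 0.0333). The receptors Bmpr1a (250.4 and 276 CPM before, 196, 292, 385 and 329.7 CPM after) and Bmpr2 (310.1 and 257 and 447, 396, 413 and 348 CPM) and the ligand Bmp5 (59.6 and 182 and 242, 294, 478 and 203 CPM) did not pass. The nuclei chosen in part for Bmper, a BMP-binding protein, thus had more of 1 receptor gene and less of 1 antagonist gene, while the median over the list was 0.09. Nbl1 was called in 9 of 15 alternatives and not without nuclei holding UMIs of other types, where its log2 fold change was nearly as large (-2.04 with an adjusted p of 0.151, range 0.000521 to 0.156), whereas Bmpr1b was called there.

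Of 29 Wnt genes 14 were tested and none passed edgeR's quasi-likelihood test or DESeq2's Wald test, with 4 at an unadjusted p under 0.05 and a median of 0.09. Ror1, a receptor for Wnt5a, stood at 1299.9 and 948 CPM before and 1906, 1199, 961 and 683 CPM after fracture, and Rspo2, which amplifies Wnt signals, at 11.9 and 51.5 and 17.0, 110.2, 324 and 84.4 CPM. Ror1 overlapped fully between the groups, and Rspo2 overlapped in day 3 replicate 1. Of 12 TGF-β genes 11 were tested, with Ltbp2 higher, none lower and a median of 0.21, and the co-receptor Tgfbr3 stood at 704 and 835 CPM before and 821, 1011, 651 and 446 CPM after.

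Of 6 PDGF genes 5 were tested and none passed by either tool (2 at an unadjusted p under 0.05, median 0.27). Among 14 PTN, ANGPTL and IGF factors 12 were tested, with Igfbp6 lower, none higher by edgeR (2 at an unadjusted p under 0.05) and a median of -0.08. Igf1, a growth factor for bone and muscle, stood at 143 and 531 CPM before fracture, 289 and 335 on day 3, 1676 on day 5 and 862 on day 7, and Ptn, a heparin-binding growth factor, at 23.9 and 26.3, 29.8 and 92.8, 317 and 248 CPM. Neither passed edgeR's test over the 4 libraries, although DESeq2 called Ptn higher, and both were highest at day 5.

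Of 19 complement and chemokine genes 12 were tested, with C7 lower by both tools, none higher by edgeR (2 at an unadjusted p under 0.05), Cxcl5 higher by DESeq2 and a median of -0.45. Among the 14 tested basement membrane genes Col15a1 was lower and the median was -0.10. Lama2, a laminin chain, stood at 2731 and 1516 CPM before and 476, 1419, 1469 and 382 CPM after, and Col4a1 at 549 and 330.3 and 136, 126, 167 and 26.4 CPM. Col4a1 was lower in all 4 post-fracture libraries and was called by DESeq2 only, as was Col4a2.

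Among 12 genes of small proteoglycans and hyaluronan 11 were tested, with Has2 higher, Dcn lower and a median of 1.45. Of 17 matrix enzymes 14 were tested, with Adam12 higher, Timp3 lower and a median of 0.44. The 15 matrix genes of the study's score were all tested, with Postn higher by edgeR, 2 genes higher by DESeq2, 5 at an unadjusted p under 0.05 and a median of 1.09, and Col12a1, a fibril-associated collagen, stood at 537 and 157 CPM before and 323, 690.3, 617 and 712 CPM after. Of 9 tested fibroblast genes Dcn was lower, none was higher by edgeR (2 at an unadjusted p under 0.05), 1 was higher by DESeq2 and the median was 0.04, and the collagen Col1a1 (191 and 744 CPM before, 749, 1539, 1654 and 765 CPM after) did not pass. Of 10 contractile genes 7 were tested, with Acta2, Tagln and Lmod1 lower and a median of -1.44, the same with Lmod1 at its bound. These 3 genes are also smooth muscle genes.

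No gene of the study's Notch score passed by either tool among 12 tested (0 at an unadjusted p under 0.05, median 0.24), and that list is not independent evidence of direction. Of 24 limb and mesenchyme identity factors 12 were tested, with Meis1 higher and a median of 0.10. Tbx15, a T-box factor, stood at 465 and 679 CPM before and 540.3, 731, 732 and 826 CPM after, and Ebf1, a factor of adipocyte and stromal lineages, at 2540.1 and 3903 and 2076, 3351, 4483 and 4017 CPM. Both overlapped between the groups. Of 3 tested osteoblast genes Runx2 was higher, and of 5 tested chondrocyte genes none passed edgeR's test (4 at an unadjusted p under 0.05, 1 by DESeq2), with a median of 5.49, or 5.45 with the 2 genes at 0 in the uninjured libraries set to their bounds. None of 7 tested myofibre genes passed by either tool (1 at an unadjusted p under 0.05, median 1.13).

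Both groups held as many libraries of Cell Ranger 6.0.0 as of 7.1.0, and with version as a covariate 143 genes were higher after fracture. Uninjured replicate 1 rests on 24 nuclei, so its values for single genes carry wide counting error.

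The second comparison asked which differences were present 3 days after fracture, the only post-fracture time with 2 libraries. The day 3 and uninjured libraries are part of the comparison above, so the 2 sets of values are not independent. The higher genes included a neutrophil chemokine, Vcan, Has2 and 2 cell division genes, next to muscle genes. Genes lower at day 3 again included markers of other cell types.

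The same edgeR test called 3.87% of 6387 tested genes outside the rule. It found 84 genes higher at day 3 (1.32%) and 163 lower (2.55%), each without overlap between the groups, and 1062 had an unadjusted p under 0.05. Single libraries moved these counts as well. Without day 3 replicate 1 edgeR called no gene (891 of 8939 had an unadjusted p under 0.05, and DESeq2 was not run there), and without day 3 replicate 2 there were 187 higher and 317 lower. Without uninjured replicate 2 there were 208 and 273, and without uninjured replicate 1, which leaves only libraries made with Cell Ranger 7.1.0, 117 were higher and 259 lower.

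Cxcl5, a chemokine that attracts neutrophils, had the largest rise at day 3 among the signalling genes. It had 1 UMI in all uninjured nuclei, stood at 85.1 and 263 CPM on day 3, and was back to 10.0 CPM on day 5 and 15.8 CPM on day 7. Both day 3 libraries were far above the uninjured and the later ones. The pooled ratio of day 3 to uninjured was 191 (95% interval 33.7 to 7578), with an adjusted p of 0.0173. Fibrogenic nuclei at day 3 had 125 and 34.8 CPM of Cxcl5, higher than Fgf7/Bmper nuclei in 1 library and lower in the other. Without nuclei holding UMIs of other types the log2 fold change of Cxcl5 was 8.45 with an adjusted p of 0.00111, and over 12 alternatives the adjusted p ranged from 5.01e-11 to 0.0905.

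Vcan and Has2 encode versican and the synthase of the hyaluronan that it binds. Vcan stood at 155 and 136 CPM in the uninjured libraries, 1204 and 808 on day 3, 445 on day 5 and 258 on day 7. Its log2 fold change at day 3 was 2.88 ± 0.47 (SE) at an adjusted p of 0.0208. That of Has2 was 2.78 ± 0.51 (SE) at an adjusted p of 0.0247. Both genes were nearer to the uninjured level on day 7, and over all post-fracture libraries Vcan was called by DESeq2 but not by edgeR, at an adjusted p of 0.084. Of 11 tested genes of small proteoglycans and hyaluronan these 2 were higher and none was lower, with a median of 1.43 beside 0.05 over all tested genes.

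Some of the genes called over all days were also called on day 3. The log2 fold change was 4.14 ± 0.71 (SE) at an adjusted p of 0.0221 for Postn, 3.70 ± 0.59 (SE) at an adjusted p of 0.0208 for Runx1, 4.38 ± 0.65 (SE) at an adjusted p of 0.0191 for Ltbp2 and 2.63 ± 0.43 (SE) at an adjusted p of 0.0208 for Adam12. That of Kif26b was 5.06 at an adjusted p of 0.0138. Runx2, Bmpr1b, Etv6 and Meis1 were not called by edgeR on day 3, at adjusted p 0.057, 0.0545, 0.0729 and 0.0913, and the difference from the result over all days was not tested. Of 17 tested fibro-core factors Bcl3, E2f3, Junb and Runx1 were higher, with a median of 1.33. Junb, a factor of the immediate-early response, stood at 0 and 19.2 CPM in uninjured nuclei, 102 and 131 on day 3, 37.1 on day 5 and 7.91 on day 7, with 2.94 ± 0.66 (SE) at an adjusted p of 0.0484. Junb at day 7 was below uninjured replicate 2, and the day 3 call held in 6 of 12 alternatives.

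Itgb6, an integrin subunit whose complex releases active TGF-β, had 3 UMIs in uninjured nuclei (0 and 3.59 CPM) and stood at 157 and 71.5 CPM at day 3, a pooled ratio of 30.1 (95% interval 9.92 to 149.5) and an adjusted p of 0.0236. Top2a, which untangles DNA in dividing cells, stood at 0 and 7.18 CPM in uninjured nuclei, 106 and 133 on day 3, 42.1 on day 5 and 26.4 on day 7. Top2a and Kif11 were 2 of 4 tested division genes that were higher (median log2 fold change 4.60), at adjusted p 0.0208 and 0.0208, and both were lower on each later day. Kif15 (0.022) and the unnamed 5730419F03Rik (0.0224) were also among the 8 largest rises.

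Muscle genes stood among the largest rises too. Ankrd1, a stress-responsive protein of muscle and some mesenchymal cells, had 1 UMI in uninjured nuclei and 68.1 and 292 CPM at day 3, a pooled ratio of 204 (95% interval 36.1 to 8109). Trim63, a ubiquitin ligase of wasting muscle, stood at 35.8 and 1.20 CPM and then 549 and 182 CPM, and Smpx, a small striated muscle protein, had no UMI in uninjured nuclei and 55.3 and 46.4 CPM at day 3, at least 15.1-fold higher. Their adjusted p was 0.0191, 0.0371 and 0.0307. The 8 myofibre genes were at 239 and 1154 CPM in uninjured Fgf7/Bmper nuclei and at 6117 and 2367 CPM at day 3, and none of the 6 tested was called by edgeR (4 at an unadjusted p under 0.05, 1 by DESeq2, median 2.28). Ankrd1, Trim63 and Smpx could not be tested once nuclei holding UMIs of other types were left out.

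C7 led the losses at day 3 as well, with 310.1 and 1066 CPM in uninjured nuclei and no UMI at day 3, at least 250.1-fold lower (adjusted p 0.0138). Fmo2, a flavin monooxygenase, fell from 262 and 165 CPM to no UMI (at least 43.6-fold), and Galnt15, an enzyme that starts O-glycosylation, from 262 and 93.4 CPM to no UMI (at least 27.3-fold). At day 5 Fmo2 and Galnt15 stood at 2.01 CPM each and at day 7 at 0, so neither was restored. Slc7a10, an amino acid transporter of adipocytes and brain, fell from 47.7 and 223 CPM to no UMI (at least 51.8-fold), as did Unc13c, a priming protein of secretory vesicles, from 95.4 and 104 CPM (at least 25.9-fold). The adjusted p of these 4 genes lay between 0.0138 and 0.0208.

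Of 5 tested PDGF genes Pdgfd was lower (median 0.32), and of 12 tested Wnt genes Sfrp4 was (median -0.53). Pdgfd, a ligand of Pdgfrb, stood at 966 and 382 CPM in the uninjured libraries, 59.6 and 77.3 on day 3, 324 on day 5 and 243 on day 7. The day 3 libraries were the lowest of the 6, and the log2 fold change was -3.23 ± 0.55 (SE) at an adjusted p of 0.0214. Sfrp4, a Wnt antagonist related to Sfrp1, fell from 59.6 and 79.0 CPM to 1 UMI in all, a pooled ratio of 58.1 (95% interval 10.1 to 2327), and stood at 35.1 CPM at day 5. Timp3 had -3.91 ± 0.60 (SE) at an adjusted p of 0.0202 and Igfbp6 a pooled ratio of 45.3 (95% interval 15.2 to 222) at an adjusted p of 0.0224.

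By list at day 3, 4 of 5 nerve-sheath genes (Luzp2, Cldn1, Tenm2 and Ntng1) were lower, 2 of 5 smooth muscle and pericyte genes (Acta2 and Myh11) and 2 of 4 adipocyte genes (Lpl and Plin1). The summed levels of these lists are those given above. The nerve-sheath median was -5.23, or -4.15 with Cldn1 at its bound. Ryr2 (adjusted p 0.0321) and Lmod1 (at least 20.2-fold) were also among the largest losses. Without nuclei holding UMIs of other types 3853 genes were tested, 87 were higher and 135 lower, 43 of the 84 and 62 of the 163 earlier calls were among them, and of the 38 genes picked for this comparison 15 were called, 3 were not and 20 could not be tested.

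The genes called at day 3 in that setting were Adam12, Bcl3, Cxcl5, E2f3, Has2, Ltbp2, Postn, Runx1 and Vcan, all higher, and C7, Fmo2, Galnt15, Igfbp6, Pdgfd and Timp3, all lower. Junb, Top2a and Lpl were not called. Their log2 fold changes there were 1.84 with an adjusted p of 0.169, 2.68 with an adjusted p of 0.059 and -1.84 with an adjusted p of 0.309. Of the other signalling lists at day 3, FGF (7 tested), BMP (16), Notch (11) and basement membrane genes (14) had no gene called by edgeR, with 2, 6, 0 and 3 at an unadjusted p under 0.05, and DESeq2 called 1, the BMP receptor Bmpr1b. The medians were -0.08, -0.08, 0.09 and -0.39.

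The third comparison set Fgf7/Bmper nuclei beside the injury-induced fibrogenic nuclei of the same post-fracture libraries, the population that the rule separates from them. Fibrogenic nuclei held at least 3 UMIs of the 5 fibrogenic genes and more of these than of the 6 markers, under the same other limits, and numbered 60 and 124 on day 3, 577 on day 5 and 179 on day 7. The rule divides the 2 kinds by their own counts, so the differences are described and were not tested. Several complement and basement membrane genes were higher in Fgf7/Bmper nuclei and several bone genes lower.

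The muscle content of the 2 kinds differed, which bears on every value. At least 5 myofibre UMIs were found in 31.7%, 62.1%, 9.53% and 11.7% of fibrogenic nuclei, against 27.1%, 20.0%, 7.89% and 2.07% of Fgf7/Bmper nuclei. In the uninjured libraries the fibrogenic limits took 53 and 155 nuclei, of which 92.5% and 82.6% held at least 5 myofibre UMIs. Fhod3 led the 5 fibrogenic genes there, at 1062 and 703 CPM. The fibrogenic group is thus defined by counts and was in part muscle-bearing. The 8 myofibre genes summed to 13978 and 23748 CPM in fibrogenic nuclei on day 3, 2298 on day 5 and 6149 on day 7, against 6117, 2367, 894 and 483 CPM in Fgf7/Bmper nuclei. Values were therefore also computed without nuclei of either kind that held at least 5 myofibre UMIs, a setting chosen after seeing the data. With 10 CPM added to each value, 51 of 19990 genes (0.255%) were at least 2-fold higher in Fgf7/Bmper nuclei in all 4 libraries and 44 (0.220%) were at least 2-fold lower. Without the muscle-bearing nuclei the counts were 31 (0.155%) and 14 (0.070%), of which 28 and 2 were shared with the first set.

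Without day 3 replicate 1 the counts were 82 and 69, without day 5 the lower count was 104, and without day 7 the higher count was 111. The 6 markers and 5 fibrogenic genes, which made the division, are in neither count. Tnc, for example, encodes tenascin C and stood at 183, 294, 287 and 195 CPM in Fgf7/Bmper nuclei and 1746, 542, 2391 and 873 CPM in fibrogenic nuclei, while Bmper stood at 162, 86.1, 167 and 152 CPM in fibrogenic nuclei. Neither kind was free of the other's genes.

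Of receptors and carriers, Ntrk2, the receptor for brain-derived neurotrophic factor, stood at 115, 83.1, 91.3 and 21.1 CPM in Fgf7/Bmper nuclei in the order day 3, day 5 and day 7, and at 4.62, 5.80, 2.34 and 1.81 CPM in fibrogenic nuclei. Its median log2 ratio over the 4 libraries was 2.80, and 2.58 without muscle-bearing nuclei. Abca8a, a lipid transporter, stood at 38.3, 315, 214 and 63.3 against 13.9, 1.66, 6.68 and 10.8 CPM, with medians of 2.78 and 2.75. Both were higher in Fgf7/Bmper nuclei in all 4 libraries, Ntrk2 least at day 7 and Abca8a least in day 3 replicate 1.

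Aldh1a2 makes retinoic acid and stood at 132, 425, 65.2 and 18.5 CPM in Fgf7/Bmper nuclei against 23.1, 19.9, 4.34 and 0 CPM in fibrogenic ones, a median log2 ratio of 2.25 (2.40 without muscle-bearing nuclei). The level was lower on days 5 and 7 than on day 3 in both kinds. Abi3bp, an extracellular matrix protein, went the other way, at 442, 692, 1501 and 1869.9 CPM against 50.8, 63.8, 405 and 897 CPM, with medians of 2.38 and 2.05. It was higher on each later day in both kinds, and the ratio between them was smallest on day 7.

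Adam33, a membrane metalloprotease, stood at 12.8, 65.7, 101 and 71.2 against 0, 2.48, 9.69 and 7.23 CPM (median 2.37), Dapk1, a death-associated kinase, at 196, 166, 294 and 261 against 64.7, 23.2, 45.4 and 45.2 CPM (median 2.35), and the noncoding Gm34907 at 80.8, 71.5, 82.2 and 65.9 against 4.62, 6.62, 10.0 and 10.8 CPM (median 2.25). Negr1, a neuronal adhesion protein, stood at 34.0, 147, 129 and 13.2 against 0, 3.31, 16.0 and 7.23 CPM, and its median was 2.28, and 1.41 without muscle-bearing nuclei. Negr1 was the 1 gene of these 8 whose difference shrank by more than 0.5. In that setting Apod, which carries lipids, Efemp1, a fibulin of the matrix, C1qtnf7, a secreted C1q-related protein, and Gas6, a ligand of the TAM receptors, entered the 8 largest, with medians of 2.35, 2.35, 2.23 and 2.22.

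Gas6 stood at 208, 296, 342 and 303 CPM in Fgf7/Bmper nuclei and 83.1, 51.3, 50.4 and 61.5 CPM in fibrogenic nuclei, a nearly constant level in the former. Over all 4189 genes with at least 50 CPM in either kind, 710 (16.9%) were higher in Fgf7/Bmper nuclei in all 4 libraries, 521 (12.4%) were lower, and the median was 0.02. Without muscle-bearing nuclei 604 were higher, 632 lower and the median was -0.03. Of 6 complement and chemokine genes at that level 5 were higher in all 4 libraries and none was lower, with a median of 1.61 (1.24 without muscle-bearing nuclei). C1s1, Serping1, Cxcl12 and Il33 were among those higher.

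Serping1, which inhibits the first step of complement, stood at 93.6, 284, 175 and 111 CPM in Fgf7/Bmper nuclei against 32.3, 37.3, 38.4 and 36.2 CPM in fibrogenic nuclei. Cxcl12, a chemokine that retains progenitors and immune cells, stood at 42.5, 124, 66.2 and 47.5 against 9.24, 32.3, 24.4 and 5.42 CPM, and Il33, an alarmin of barrier and stromal cells, at 187, 90.9, 68.2 and 26.4 against 60.1, 10.8, 7.68 and 16.3 CPM. Il33 was highest in day 3 replicate 1 and lower at each later time, while Serping1 and Cxcl12 were highest in day 3 replicate 2. Complement genes thus set the 2 kinds apart although C7 itself was nearly absent from both.

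Of 13 basement membrane genes 6 were higher in all 4 libraries, namely Lama4, Lamb1, Nid1, Nid2, Col4a2 and Col14a1, and none was lower (median 0.93, or 0.79 without muscle-bearing nuclei, where 7 were higher and 1 lower). Lama4, a laminin chain of vessels and mesenchyme, stood at 234, 739, 614 and 646 CPM against 102, 129, 368 and 392 CPM. Col14a1, a collagen on the surface of fibrils, stood at 59.6, 433, 589 and 335 against 18.5, 43.9, 230.1 and 193 CPM. Both differed most in day 3 replicate 2 and least at day 7.

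Of 9 PTN, ANGPTL and IGF factors 5 were higher (Angptl1, Igf1, Igfbp4, Igfbp7 and Gas6) and Angptl2 was lower in all 4 libraries, with a median of 0.70, while 4 were higher and 1 lower without muscle-bearing nuclei (0.20). Igf1 stood at 289, 335, 1676 and 862 CPM in Fgf7/Bmper nuclei against 69.3, 123, 576 and 526 CPM, and Igfbp4, which binds and inhibits IGF, at 59.6, 234, 382 and 158 against 23.1, 40.6, 132 and 43.4 CPM. Angptl2 stood at 17.0, 32.9, 42.1 and 26.4 against 41.6, 36.4, 169 and 70.5 CPM. With all nuclei included, Igf1 and Igfbp4 were thus both higher in Fgf7/Bmper nuclei.

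Of 8 Wnt genes 4 were higher and none lower, with a median of 0.92, while 3 were higher and 1 lower without muscle-bearing nuclei (1.07). Ror1 stood at 1906, 1199, 961 and 683 CPM against 549.7, 234, 258 and 327 CPM, Rspo3, a Wnt amplifier, at 12.8, 52.2, 68.2 and 92.3 against 0, 8.28, 43.4 and 23.5 CPM, and Dkk2, an antagonist, at 102, 19.3, 152 and 71.2 against 18.5, 11.6, 55.8 and 28.9 CPM. Lgr4, the receptor for R-spondins, was the fourth. With all nuclei included, these 4 were an amplifier, an antagonist and 2 receptors.

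Of 11 BMP genes 4 were higher (Bmp5, Bmp6, Chrdl1 and Fstl1) and none lower, with a median of 0.17, while 4 were higher and 3 lower without muscle-bearing nuclei (0.02). Of 9 TGF-β genes 2 were higher, the receptors Tgfbr2 and Tgfbr3, with a median of -0.03, and 2 were higher and 1 lower without those nuclei (-0.18). Tgfbr3 stood at 821, 1011, 651 and 446 CPM against 319, 281, 219.8 and 179 CPM, and Chrdl1, a BMP antagonist, at 102, 34.8, 99.3 and 87.0 against 0, 0.828, 28.7 and 28.9 CPM. Of 4 FGF genes 3 were higher (Fgf2, Fgfr1 and Spred1, median 0.46) and of 4 PDGF genes both receptors (0.37), but without muscle-bearing nuclei each list had 1 gene higher and 1 lower (0.28 and -0.01). Of 7 limb and mesenchyme factors 4 were higher (Meis2, Hoxa9, Ebf1 and Ebf2, 0.67), and 3 without those nuclei (0.42).

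Of 4 cell division genes Cenpe was lower in all 4 libraries (median -0.38), and without muscle-bearing nuclei 3 were lower (-0.90). Of 8 fibroblast genes Pdgfra, Pdgfrb and Dcn were higher (0.41), but 2 were higher and 2 lower without those nuclei (-0.04), and of 5 chondrocyte genes Acan was lower in both settings (-0.04 and -0.13).

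Of 18 fibro-core factors 5 were higher and 3 lower (median 0.09), with Runx1 among the lower at 1306, 2044, 1761 and 1479.6 CPM against 1584, 2202, 2593 and 1645 CPM in fibrogenic nuclei. Of 15 genes of the study's matrix score Eln and Tll1 were higher and none lower (median 0.28). Without muscle-bearing nuclei 2 were higher and 5 lower (-0.08). With all nuclei included, Postn stood at 698, 905, 1979 and 1097 against 406, 320.5, 3168 and 1130.0 CPM. It was then higher in Fgf7/Bmper nuclei at day 3 and lower at days 5 and 7. Its values without muscle-bearing nuclei are not given here. Of 11 Notch genes 3 were higher (median 0.25, and 1 higher at 0.03 without muscle-bearing nuclei), and of 9 proteoglycan genes Dcn and Ogn (0.36, and 1 higher at -0.14). Of 11 matrix enzymes Mmp2 and Adamtsl1 were higher and Timp3 lower (0.11, and 2 of each at -0.24), and of 3 contractile genes all were lower (-0.93, and 1 lower at -0.77).

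Among genes lower in Fgf7/Bmper nuclei, the 8 largest differences were mainly muscle genes. Muscle-bearing nuclei were chosen by UMIs of the myofibre list, so levels of its genes fall by definition once those nuclei are left out. The median log2 ratio was -4.42 for Agbl1 and 0.02 without those nuclei, -3.32 and 0.04 for the muscle kinase Mylk4, -3.10 and -0.03 for the sarcomere protein Actn2, -2.80 and -0.02 for the fast myosin Myh1, and -2.79 and 0.13 for triadin (Trdn). Pkhd1, Gm28653 and Esrrg, at -3.21, -3.01 and -2.73, came to -0.35, -0.15 and 0.11. All 8 genes of the myofibre list were lower in all 4 libraries, with a median of -2.18 that became 0.12.

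Without muscle-bearing nuclei bone genes were among the 8 largest differences downward. Sp7, which drives osteoblast formation, stood at 0, 3.87, 16.0 and 31.6 CPM in Fgf7/Bmper nuclei against 55.4, 29.8, 73.5 and 38.0 CPM in fibrogenic nuclei, and its median without those nuclei was -2.45. Ibsp, a bone matrix sialoprotein, stood at 0, 30.9, 121 and 31.6 against 87.8, 117, 127 and 70.5 CPM (median -2.18), and Inhba, the subunit of activin A, at 51.0, 15.5, 18.1 and 21.1 against 83.1, 71.2, 149 and 112 CPM (median -2.40). Each was lower in Fgf7/Bmper nuclei in all 4 libraries, by little for Ibsp on day 5 and for Sp7 on day 7.

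Fat3, a large cadherin, differed most, at 0, 50.3, 175 and 47.5 CPM against 383, 304, 671 and 99.4 CPM, with a median of -2.13 that became -3.14. Sncaip, Mamdc2, Nfatc2 and Thsd4 followed with -2.83, -2.17, -2.08 and -1.94. Of 3 osteoblast genes Alpl and Ibsp were lower in all 4 libraries (median -1.04), and Runx2 was not, at 893, 982, 1172 and 1791 CPM against 1450.5, 827, 2349.9 and 1620.0 CPM. The 2 kinds thus shared Runx2 and differed in the later bone genes Sp7, Alpl and Ibsp.

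**Figure D4:**
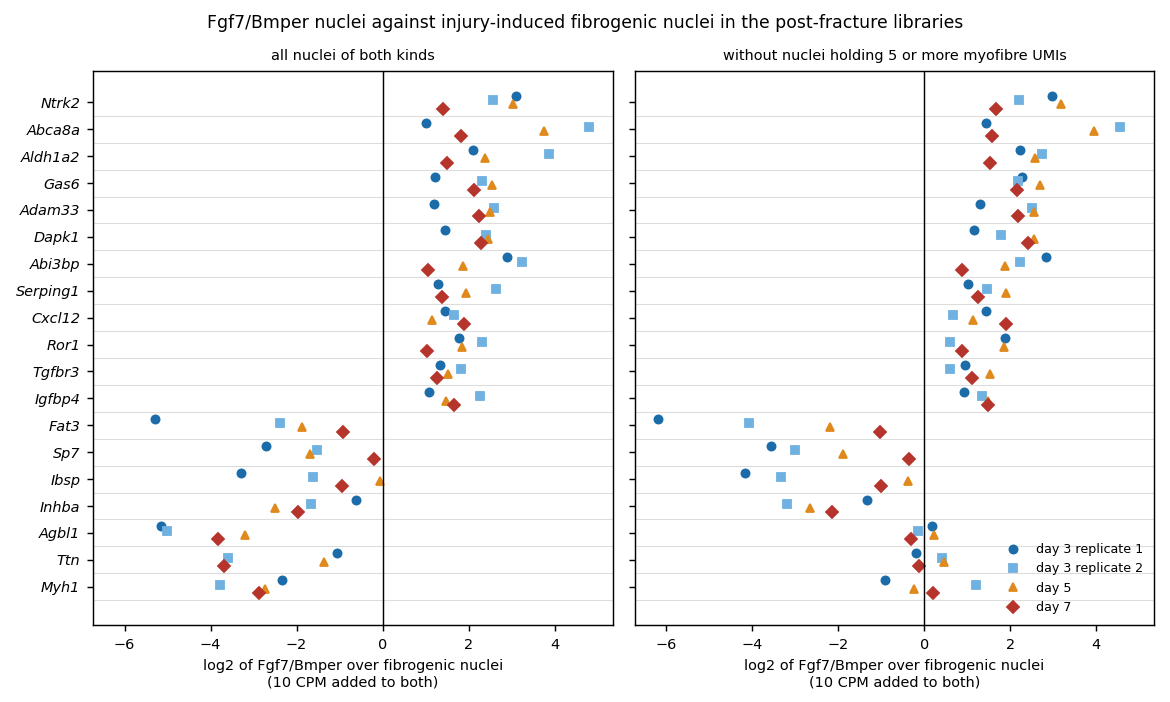
Log2 ratio of Fgf7/Bmper to fibrogenic nuclei per post-fracture library (10 CPM added), with all nuclei (left) and without nuclei holding 5 or more myofibre UMIs (right). Ntrk2 kept its median, 2.80 and 2.58, while that of the muscle gene Agbl1 went from -4.42 to 0.02.

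The last comparison followed Fgf7/Bmper nuclei from day 3 to days 5 and 7. Days 5 and 7 have 1 library each and no test was made. Both were made with Cell Ranger 6.0.0 and both day 3 libraries with 7.1.0, so day and version cannot be told apart here. At least 4-fold differences from the nearer of the 2 day 3 libraries were counted among genes with at least 50 CPM in the higher. Some cartilage genes were higher later, and some muscle genes and Prg4 were lower.

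At day 5, 30 of 3817 genes (0.786%) were at least 4-fold higher than in both day 3 libraries and 19 of 3953 (0.481%) were lower, and at day 7 the counts were 47 of 3580 (1.31%) and 48 of 3953 (1.21%). Against day 3 replicate 2 alone they were 60 and 45 at day 5 and 86 and 173 at day 7, and against replicate 1 alone 164 and 76, and 157 and 133. Without nuclei holding UMIs of other types, 18 genes were lower at day 7.

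The genes with the largest ratios upward included 3 of cartilage matrix. Hapln1, which links hyaluronan to aggrecan, stood at 35.8 and 18.0 CPM in uninjured nuclei, 4.25 and 9.67 on day 3, 431 on day 5 and 644 on day 7. Col2a1, the main cartilage collagen, stood at 11.9 and 5.99, 0 and 13.5, 347 and 809.7 CPM, and Acan, aggrecan, at 0 and 0, 8.51 and 17.4, 276 and 414 CPM. All 3 were low in the uninjured and day 3 libraries and highest at day 7. Their log2 ratios to the nearer day 3 library were 4.49, 3.92 and 3.38 at day 5, and 5.05, 5.12 and 3.95 at day 7.

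Few Fgf7/Bmper nuclei carried the cartilage UMIs, with at least 5 in 20 of 228 on day 5 and in 21 of 145 on day 7. Without nuclei holding UMIs of other types the list summed to 427 CPM on day 5 in place of 1296, with Hapln1 at 66.6 CPM, and to 2477 CPM on day 7 in place of 2361. These genes were not restricted to Fgf7/Bmper nuclei. Col2a1 stood at 559 and 709 CPM in fibrogenic nuclei at days 5 and 7 and at 393 and 1218 CPM in the remaining nuclei, and Hapln1 at 597 and 459 and at 356 and 1015 CPM. The levels in Fgf7/Bmper nuclei were within or near the range of the other nuclei. Whether the transcripts came from the nuclei themselves or from free RNA was not tested.

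Pdzrn4, a ubiquitin ligase with PDZ domains, stood at 0 and 71.8 CPM in uninjured nuclei, 4.25 and 40.6 on day 3, 716 on day 5 and 1772 on day 7, a log2 ratio of 3.84 at day 5 and 5.14 at day 7. Kcnip4, a potassium channel partner, stood at 429 and 93.4, 8.51 and 21.3, 599 and 195 CPM (4.28 at day 5), and Adamts16, a matrix protease, at 0 and 4.79, 0 and 0, 46.1 and 158 CPM (4.07 at day 7). Kcnip4 was low only at day 3, since both uninjured libraries were above it.

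Prg4, the lubricin of joint surfaces, was lowest on the later days. It stood at 35.8 and 243 CPM in uninjured nuclei, 464 and 112 on day 3, 7.02 on day 5 and 0 on day 7, with log2 ratios of -2.84 at day 5 and -3.61 at day 7. Fgf13, an intracellular FGF relative that binds sodium channels, stood at 1029 and 1249 CPM on day 3, 211 on day 5 and 71.2 on day 7, and Dmd, which encodes dystrophin, at 3820.2 and 3299, 1048 and 256 CPM. Pdlim3 and Des, of the muscle Z-disc and intermediate filaments, stood at 208 and 574 and at 85.1 and 85.1 CPM on day 3, and at 10.6 CPM and no UMI on day 7.

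The day 7 differences of Fgf13 and Pdlim3 changed direction without nuclei holding UMIs of other types, and the cause was not tested. The log2 ratio at day 7 was -3.68 for Fgf13 and -3.41 for Pdlim3 with all nuclei, and 0.50 and 1.08 without those nuclei.

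The other transcripts with the largest differences downward on day 5 were low in that whole library. AY036118 stood at 396 and 294 CPM on day 3, 22.1 on day 5 and 588 on day 7, and Gm26917 at 4769 and 1406, 236 and 2411 CPM. CAAA01118383.1 and Tmlhe had no UMI at day 5 and stood at 59.6 and 59.9 and at 46.8 and 98.6 CPM at day 3. In all kept nuclei of the day 5 library these last 2 genes had no UMI either, and AY036118 and Gm26917 stood at 26.3 and 309 CPM, so the difference was not particular to Fgf7/Bmper nuclei.

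Igf1 and Ptn, named above, were read over the days as well. Igf1 was higher at day 5 (1676 CPM) and day 7 (862 CPM) than in either day 3 library (289 and 335 CPM), as was Ptn (317 and 248 CPM against 29.8 and 92.8 CPM). Both genes were highest on day 5.

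Fgf7/Bmper nuclei also varied among themselves within a library. At day 5, 93 nuclei were led by Bmper, 50 by Svep1 and 38 by Scn7a, and at day 7 the numbers were 33, 39 and 25. Hapln1 stood at 1006 CPM in Bmper-led nuclei, 3.83 CPM in Svep1-led and 91.7 CPM in Scn7a-led nuclei at day 5, and at 922, 847 and 92.0 CPM at day 7. Hapln1 was thus highest where Bmper led on day 5, while on day 7 Bmper-led and Svep1-led nuclei lay close together. Few nuclei carried the cartilage UMIs, as given above.

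Kif26b was highest where Scn7a led, at 861 and 1362 CPM in Scn7a-led nuclei at days 5 and 7, against 327 and 384 CPM in Bmper-led and 337 and 753 CPM in Svep1-led nuclei. Pdzrn4 stood at 1162 and 2077 CPM where Svep1 led, against 196 and 538 CPM where Bmper led. Igf1 at day 5 was 1753 CPM in Svep1-led, 1428 CPM in Bmper-led and 698 CPM in Scn7a-led nuclei. The order of these 3 groups therefore depended on the gene.

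The nuclei also differed with their content of fibrogenic UMIs. At day 5, 69 Fgf7/Bmper nuclei had no fibrogenic UMI and 96 had at least 3, and at day 7 the numbers were 58 and 44. Abca8a stood at 471 and 152 CPM in the former at days 5 and 7, against 154 and 0 CPM in the latter, while Postn stood at 1173 and 837 CPM against 2441 and 1081 CPM. Col12a1 stood at 385 and 448 CPM against 785 and 932 CPM. Abca8a was thus higher and the matrix genes Postn and Col12a1 lower in nuclei without fibrogenic UMIs on both days, and median depth was lower in those nuclei as well, at 2606 against 4283.5 UMIs at day 5 and 1486 against 3497 at day 7.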

How the data were processed

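The authors deposited matrices of raw counts (UMIs of each gene in each barcode) for 6 libraries, made with Cell Ranger 6.0.0 or 7.1.0 per the file headers. The labels also name a human reference, but the gene identifiers are those of mouse.

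Nuclei were chosen by the marker counts stated in the text, and the nuclei and the gene lists were chosen with earlier results of these data known. UMIs were summed per library and tested with edgeR 4.0.16 (TMM, filterByExpr, quasi-likelihood test, common dispersion 0.148 and 0.129) in R 4.3.3, with DESeq2 1.42.0 as an alternative. Scrublet ran in scanpy 1.11.5. Other alternatives were no filter on low counts, Cell Ranger version as a covariate, other marker limits, doublets removed, looser limits on nuclei, each library left out, 50 CPM in place of 10 added to ratios, and thinning. Leaving out nuclei with UMIs of other types, and the day 5 or day 7 library, was chosen after seeing the data.

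Named genes were, for each test and direction, the 8 called genes with the largest fold changes that averaged 50 CPM or more in the higher group without overlap between groups, the 8 largest median ratios against fibrogenic nuclei and the 5 largest ratios per later day. Called genes of each list were named with 2 to 4 others, chosen after their values were seen. Some genes that the rule names are not reported here.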

Additional observations from a re-analysis of the deposited data

Results flagged for a closer look

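A set of 73 genes, not every gene named in the text, was examined over the 4 post-fracture libraries for 1 library far from the other 3. The measure was the gap to the nearest library divided by the whole range, set against Dixon's 95% critical value. Of 73 groups 4 passed it (5.48%), and chance alone picks out about 1 in 20 groups (5%). CAAA01118383.1 stood apart on day 5 (0.903), with no UMI there. Esrrg stood apart on day 7 (0.940), at 2.64 CPM. Inhba stood apart in day 3 replicate 1 (0.842), at 51.0 CPM, and Mamdc2 on day 5 (0.863), at 156 CPM.

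The genes screened next were not all those named in the text. In Fgf7/Bmper nuclei 7 of the screened genes were above both uninjured libraries on 1 day and below both on another. Outside these, Fgfr2, with its values given above, was below both on day 3 and above both on day 7. The difference between days was not tested for any of these genes. Where a gene stood on the same side on 2 days, the value given is the mean over the 2 days. Aldh1a2 was above on day 3 (278.6 CPM) and below on day 7 (18.5 CPM), and Pdlim3 was above on days 3 and 5 (340.1 CPM) and below on day 7 (10.6 CPM). Hapln1 was above on days 5 and 7 (537 CPM) and below on day 3 (6.96 CPM), and Kcnip4 was above on day 5 (599 CPM) and below on day 3 (14.9 CPM). Fat3 was above on day 5 (175 CPM) and below on days 3 and 7 (36.3 CPM). Gm26917 (2749 and 236 CPM) and CAAA01118383.1 (62.8 and 0 CPM) were above on days 3 and 7 and below on day 5.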

How the results depend on the processing

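Of 1065 values of named genes in tests under the alternatives, 878 kept their direction and their side of the threshold, 187 kept the direction but no longer passed, and none reversed. Of 224 median ratios to fibrogenic nuclei 197 moved by less than the spread between libraries, 23 moved more and 4 reversed, and of 140 ratios between days the numbers were 90, 48 and 2. Of 98 counts 58 were within 1.5 times the main count. Where a value changed, the cause was not tested.

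After fracture against uninjured, genes higher numbered 164 with DESeq2, 407 without a filter on low counts, 143 with Cell Ranger version as a covariate and 48 without nuclei holding UMIs of other types. Genes lower numbered 652 without the filter and 91 without those nuclei. Leaving out 1 library gave 14 to 95 higher and 85 to 251 lower. On day 3 there were 238 and 432 without the filter, 141 higher with a limit of 2 marker UMIs, and 0 to 208 and 0 to 317 leaving out 1 library.

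Against fibrogenic nuclei the numbers higher and lower were 10 and 8 with 50 CPM added, 31 and 14 without nuclei holding 5 myofibre UMIs, and 57 to 111 and 54 to 104 leaving out 1 library. Without nuclei holding 5 myofibre UMIs the log2 ratio of 4 genes changed sign, to 0.022 for Agbl1, 0.035 for Mylk4, 0.126 for Trdn and 0.107 for Esrrg. Against 1 day 3 library, day 5 had 60 to 164 higher and 45 to 76 lower genes, and day 7 had 86 to 157 and 133 to 173. Without nuclei holding UMIs of other types 18 were lower on day 7, and Fgf13 and Pdlim3 changed sign, to 0.501 and 1.08.

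Shares with a limit of 2 marker UMIs were 6.21% and 13.7% in the uninjured libraries, 9.83% and 6.63% on day 3, 10.9% on day 5 and 15.2% on day 7. With a limit of 4 they were 2.17% and 9.05% in the uninjured libraries and 7.55% on day 7. With myofibre nuclei out of the denominator, except those that pass the rule, they were 17.2% in uninjured replicate 2, 13.4% and 6.58% on day 3, 10.7% on day 5 and 13.2% on day 7. This raises the share by itself where such nuclei pass the rule. Without nuclei holding 5 myofibre UMIs in either count, day 3 replicate 1 came to 10.2% and day 7 to 12.9%. With looser limits on nuclei day 3 replicate 2 came to 2.78% and day 7 to 4.27%. Of 12 shares of nuclei with a marker UMI 11 moved with the thinning depth.

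No paired analysis was possible because the pools of mice differ between libraries. Where 1 uninjured or day 3 library was left out, the lone library was assumed to vary like the others. Summed depth was lowest in uninjured replicate 1.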

Other observations

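Some barcodes outside the limits on genes, mitochondrial and ribosomal protein UMIs met the gene counts of the rule. They numbered 0 and 11 in the uninjured libraries, 0 and 49 on day 3, 1 on day 5 and 2 on day 7, and were in no comparison.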
